A study of Homo sapiens with 6 samples.

Results

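The 10 genes DUSP4, DUSP5, DUSP6, SPRY1, SPRY2, SPRY4, SPRED1, SPRED2, SPRED3 and PHLDA1 encode inhibitors that act on signalling from receptor tyrosine kinases through RAS to the MAP kinase ERK. They were taken by symbol from gene tables that list 27968 genes, and all 10 were found. The study compared RNA from A549 and H23, established human lung cancer cell lines, to ask how their transcriptomes differ. A549 was grown in DMEM and H23 in RPMI, each with fetal bovine serum and without treatment, so the medium cannot be told apart from the line. Each group held 3 independent cultures of 1 line, harvested before confluence, and a line stands for 1 tumour only.

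When ERK is active it switches on genes whose products damp the same pathway. The dual-specificity phosphatases of the DUSP family remove phosphate from MAP kinases, DUSP4 and DUSP5 in the nucleus and DUSP6 in the cytoplasm. Sprouty proteins (SPRY) interrupt signalling between the receptors and RAS, and SPRED proteins bring the RAS inactivator neurofibromin to the membrane. Transcripts of several of these genes are commonly used as a readout of ERK activity.

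SPRED2 has a pair of annotated starts near transcripts that held unequal shares in the lines, and the sequence at each start is shown for that reason. The windows run from 250 bases before to 50 bases after a start in RefSeq on GRCh38.p14, on the minus strand, written 5′ to 3′. They lie at chr2:65432550-65432849 for the upstream start and at chr2:65366729-65367028 for the downstream one, and the starts are 65821 bases apart. GENCODE release 29 pairs the transcript NM_181784 with a start 422 bases from the upstream one and NM_001128210 with a start 128 bases from the downstream one. Both GENCODE starts lie outside the windows, so the sequences below do not hold the GENCODE starts of these transcripts. Capitals mark matches on either strand to TGANTCA, searched for here as a loose form of the AP-1 site, with N any base. The matches shown are TGACTCA and TGAATCA.
Upstream start: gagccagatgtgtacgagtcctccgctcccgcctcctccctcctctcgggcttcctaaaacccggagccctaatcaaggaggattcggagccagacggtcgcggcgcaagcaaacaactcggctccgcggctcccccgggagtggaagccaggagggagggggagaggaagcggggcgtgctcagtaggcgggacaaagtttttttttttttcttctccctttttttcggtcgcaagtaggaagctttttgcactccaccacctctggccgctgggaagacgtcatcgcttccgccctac
Downstream start: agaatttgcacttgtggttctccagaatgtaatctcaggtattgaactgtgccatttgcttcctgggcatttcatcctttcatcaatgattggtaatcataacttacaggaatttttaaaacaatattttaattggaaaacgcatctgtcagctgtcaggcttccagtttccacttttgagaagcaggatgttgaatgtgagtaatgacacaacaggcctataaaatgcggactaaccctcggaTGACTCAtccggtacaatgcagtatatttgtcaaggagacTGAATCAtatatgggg
The upstream window was 60% G or C and held no such match, and the downstream window was 39.3% G or C. Over 35116 RefSeq windows of this length, 7.71% held the letters TGANTCA. DUSP4 was left out of the count of windows, and no window was found for DUSP5. Of 13 windows of the other 8 genes, 2 held the letters TGANTCA, the downstream one of SPRED2 and 1 of SPRED3. The ETS letters CCGGAAGT, present in 4.14% of all windows, were in none of the 13, nor were the CRE letters TGACGTCA, present in 1.85%, or the CArG box, present in 1.29%. These letters are a description of the windows and not of binding.

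The A549 libraries held 23399562 to 25348083 estimated read counts and the H23 libraries 29395795 to 42421642. H23 replicate 1 stood apart, with a mean root mean square difference of 0.53 on the log2 scale from the other H23 libraries. That mean was 0.37 for each of those, which includes their distance to replicate 1, and 0.187 to 0.193 for the A549 libraries. A chi-square per gene between the counts of a pair of libraries was 103 and 130 for H23 replicate 1 with replicates 2 and 3. It was 5.44 between H23 replicates 2 and 3, and 3.81 to 3.99 between A549 libraries. Genes under 200 bases took 15.7% to 19.7% of TPM (abundance scaled for length and depth) in A549 and 0.112% to 0.242% in H23. Since TPM sums to a fixed total, this leaves less of it for longer genes in A549. The log2 fold of the median tested gene was -0.48 on log2(TPM + 1), against -0.03 on counts and -0.16 with upper quartile factors. On log2(TPM + 1) 3419 genes were higher and 7397 lower in A549, against 5801 higher and 6109 lower on counts. Folds below are from counts, as log2 of A549 over H23 with an approximate standard error, from the quasi-likelihood test of edgeR, with p-values adjusted by Benjamini and Hochberg over 15426 genes. Levels per library are CPM, counts scaled to library size with TMM factors, in the order of replicates 1, 2 and 3. Epithelial markers summed to 4340 to 4610 CPM in A549 and 3634 to 3779 CPM in H23, almost all of it KRT8 and KRT18. They went in both directions. KRT19 and KRT8 were higher in A549, at log2 3.72 and 0.55, CDH1 and EPCAM lower, at -1.43 and -0.91, and KRT18 was not called. Of the lung adenocarcinoma markers, NKX2-1 was at 0 in all 3 A549 libraries and averaged 2.95 CPM in H23. NAPSA overlapped between the lines and was not called. SFTPB, too low to be tested, averaged 0.178 CPM in A549 and 0.0245 CPM in H23. The 3 such genes summed to 0.862 to 1.28 CPM in A549 and 3.44 to 4.48 CPM in H23. Summed markers of leukocytes were at 3.67 to 3.97 CPM in A549 and 2.30 to 4.64 CPM in H23, almost all of it CD14. CD14 was not called, and CD3E was at 0 in all 6 libraries. Endothelial markers summed to 0.0862 to 0.208 CPM in A549 and 0.555 to 1.10 CPM in H23. Fibroblast markers summed to 8.48 to 9.83 CPM in A549 and 19.1 to 27.97 CPM in H23. Most of that was COL1A1, which averaged 8.23 CPM in A549 and 22.4 CPM in H23 and was called lower in A549, at log2 -1.44. LUM was called lower in A549 too, at log2 -1.28, and DCN was at 0 in all 6. The part of these differences in the folds was not tested.

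A549 carried more DUSP4, DUSP5 and SPRED1 RNA than H23 and less of the other 7 genes. The differences ran from 13.9-fold lower for SPRY4 to 7.29-fold higher for DUSP4. All 10 genes passed the filter on low counts and an adjusted p of 0.05, as did 77.2% of all genes tested, so that a call alone says little about them. The 3 genes higher in A549 stand beside 37.6% of all genes called in that direction and the 7 lower ones beside 39.6%. For 9 of the 10 the difference was at least 2-fold, against 50.1% of all genes, the exception being SPRY2. The libraries of the lines did not overlap for any of the 10, as for 82.1% of all genes. The median log2 fold of the 10 was -1.32, against -0.03 for all tested genes. Whether fewer cells expressed a gene or each cell held less of its RNA cannot be told apart in these bulk samples.

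**Figure D1:**
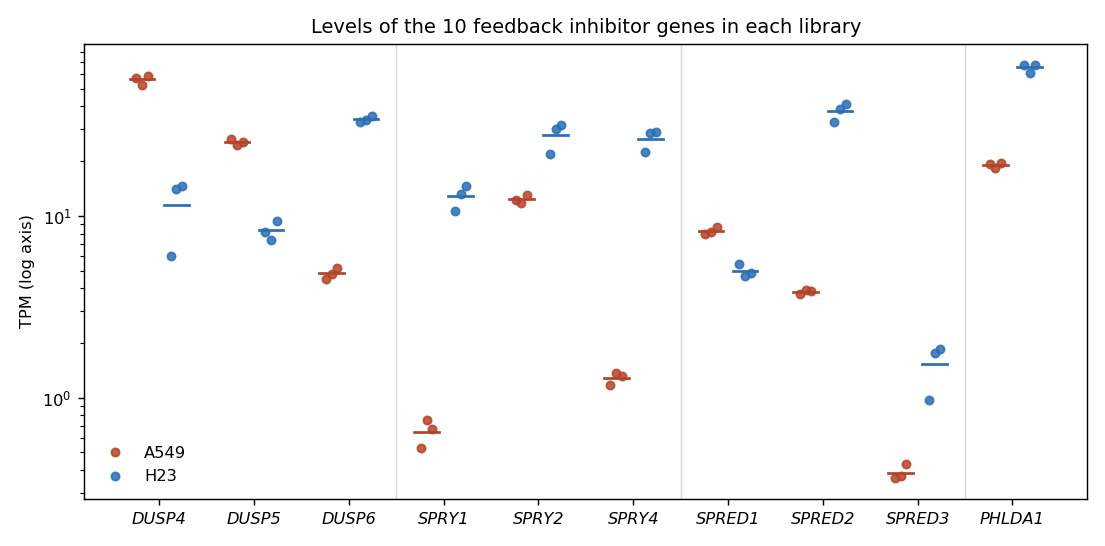
TPM of each of the 10 genes on a log axis, with 1 point per library and a bar at the mean of the 3 libraries of a line, A549 in red and H23 in blue. The A549 points lie above the H23 points for DUSP4, DUSP5 and SPRED1 and below them for the other 7 genes.

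The phosphatases went in opposite directions. DUSP4, which acts on ERK and on the stress kinase JNK, was at 301, 278 and 291 CPM in A549, against 22.2, 47.6 and 49.7 CPM in H23. All A549 libraries were far above all H23 libraries, and H23 replicate 1 was the lowest. The log2 fold of DUSP4 was 2.87 ± 0.30 (n = 3 each, edgeR adjusted p = 0.000123) and 2.57 without H23 replicate 1. DUSP5, a nuclear phosphatase selective for ERK, was at 59.4, 55.6 and 54.1 CPM in A549, against 13.1, 10.8 and 13.8 CPM in H23. Its log2 fold was 2.16 ± 0.12 (edgeR adjusted p = 5.67e-06), and no library of one line came near the other. DUSP6, the ERK phosphatase of the cytoplasm, showed the reverse, at 13.9, 14.9 and 14.96 CPM in A549, against 72.4, 67.7 and 70.9 CPM in H23. The log2 fold of DUSP6 was -2.27 ± 0.09 (edgeR adjusted p = 1.18e-06), with little spread within either line.

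SPRY1, SPRY2 and SPRY4 were all lower in A549, but by unequal amounts. SPRY4 was at 5.40, 6.35 and 5.69 CPM in A549, against 73.0, 84.8 and 85.8 CPM in H23 (log2 -3.80 ± 0.12; edgeR adjusted p = 6.39e-07). SPRY1 was at 1.12, 1.68 and 1.47 CPM in A549, against 16.4, 19.1 and 20.4 CPM in H23 (log2 -3.71 ± 0.18; edgeR adjusted p = 3.46e-06). These were the 2 largest folds among the 10 genes, and the A549 values of SPRY1 rested on 27, 42 and 34 reads. SPRY2, which also binds the ubiquitin ligase CBL that removes receptors from the surface, was at 24.6, 24.2 and 25.2 CPM in A549, against 31.1, 39.6 and 42.0 CPM in H23. The groups lay close together for SPRY2 but did not overlap, with a log2 fold of -0.61 ± 0.13 (edgeR adjusted p = 0.0038). The fold of SPRY2 ranged from -1.16 on log2(TPM + 0.1) to -0.34 with the replicate number as a block and the GC and length trend removed, with an adjusted p of at most 0.0261. SPRY4-AS1, a gene on the opposite strand that overlaps the annotated SPRY4 gene, lay between 0.291 and 0.647 CPM in A549 and between 0.434 and 0.555 CPM in H23, and SPRY4-IT1, within the same locus, between 0.0416 and 0.120 CPM in A549 and at 0.687, 1.0025 and 0.612 CPM in H23. Whether counting used strand is not given in the sources used here.

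The SPRED genes divided. SPRED1, whose loss in the germ line causes Legius syndrome, was at 53.4, 55.5 and 55.4 CPM in A549, against 26.1, 20.6 and 21.4 CPM in H23. It was higher in every A549 library, with a log2 fold of 1.27 ± 0.11 (edgeR adjusted p = 5.42e-05). The fold of SPRED1 shrank under some settings. It was 0.39 once a trend with GC content and gene length was removed (edgeR adjusted p = 0.00201) and 0.63 on log2(TPM + 1), and over all its settings the adjusted p lay between 2.63e-22 and 0.00341. SPRED2 was at 15.1, 16.0 and 14.96 CPM in A549, against 91.0, 98.6 and 106 CPM in H23 (log2 -2.68 ± 0.10; edgeR adjusted p = 9.76e-07). SPRED3, the scarcest of the 10 genes by mean TPM in both lines, was at 1.66, 1.76 and 1.90 CPM in A549, against 3.25, 5.35 and 5.60 CPM in H23. The log2 fold of SPRED3 was -1.41 ± 0.24 (edgeR adjusted p = 0.00147), and H23 replicate 1 lay nearest to the A549 libraries. It was -0.85 on log2(TPM + 1) without a filter, and SPRED3 did not pass the TPM filter.

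PHLDA1, a protein with a pleckstrin homology-like domain whose transcript responds to ERK, was at 106, 102 and 101 CPM in A549, against 266, 219.7 and 240.0 CPM in H23. All A549 libraries were below all H23 libraries, with a log2 fold of -1.23 ± 0.09 (edgeR adjusted p = 2.39e-05).

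Across the settings tried, the log2 fold of DUSP4 ran from 2.28 to 3.19, that of DUSP5 from 1.51 to 2.68 and that of DUSP6 from -2.80 to -2.04. Those of SPRY1 and SPRY4 ran from -4.10 to -2.94 and from -4.26 to -3.42. SPRED2 ran from -3.26 to -2.42 and PHLDA1 from -1.78 to -1.16.

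**Figure D2:**
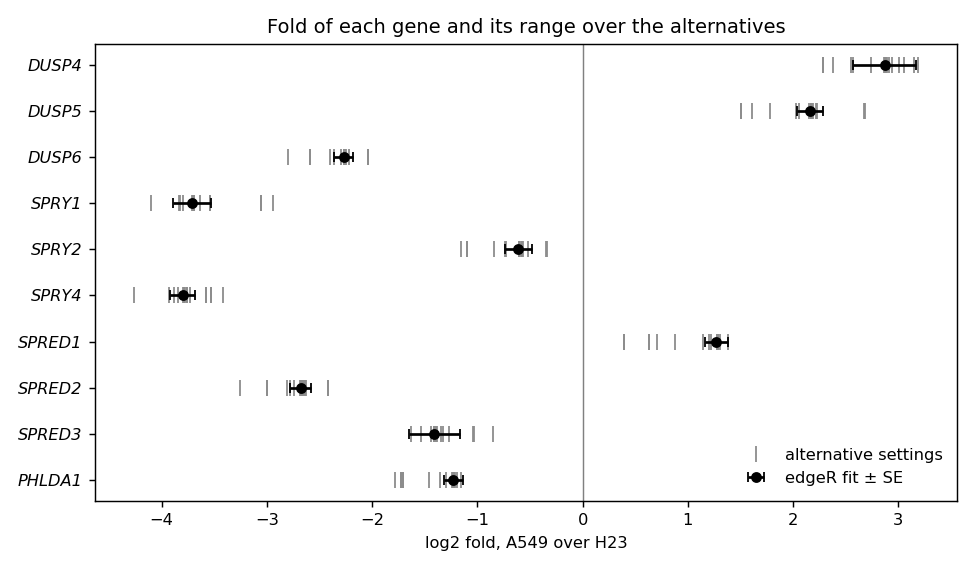
Log2 fold of A549 over H23 for each gene, with the edgeR fit as a black point, its approximate standard error as a bar and each alternative setting as a grey tick. No tick crosses 0, and SPRED1, at 1.27 in the edgeR fit, reaches down to 0.39.

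Compared per length, in TPM, the order of the genes differed between the lines. In A549 it ran from DUSP4 at 56.4 ± 3.36 TPM (SD, n = 3) through DUSP5 at 25.5 ± 0.975, PHLDA1 at 19.1 ± 0.609, SPRY2 at 12.3 ± 0.602 and SPRED1 at 8.23 ± 0.394 TPM to DUSP6 at 4.82 ± 0.327 TPM. SPRED2 at 3.83 ± 0.0954, SPRY4 at 1.29 ± 0.0971, SPRY1 at 0.65 ± 0.111 and SPRED3 at 0.387 ± 0.0379 TPM followed in A549. No neighbours in that order overlapped between libraries. In H23 the order began with PHLDA1 at 65.6 ± 3.58 TPM, SPRED2 at 37.8 ± 4.31, DUSP6 at 34.1 ± 1.26, SPRY2 at 27.9 ± 5.30 and SPRY4 at 26.6 ± 3.61 TPM. It went on with SPRY1 at 12.8 ± 1.95, DUSP4 at 11.6 ± 4.83, DUSP5 at 8.31 ± 1.04, SPRED1 at 4.98 ± 0.380 and SPRED3 at 1.53 ± 0.487 TPM. Among H23 neighbours, SPRED2 and DUSP6, SPRY2 and SPRY4, SPRY1 and DUSP4, and DUSP4 and DUSP5 overlapped and are not ordered beyond their spread.

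Each family had another leading gene or another balance in A549. Shares of the summed TPM of 3 family members do not depend on the scaling between libraries. They are given as a description, with no test. DUSP4 made up 65.0% ± 0.774 of the 3 phosphatases in A549 and 20.9% ± 7.14 in H23 (SD, n = 3 each), and DUSP6 5.57% ± 0.405 in A549 and 63.6% ± 5.64 in H23. The ratio of DUSP4 to DUSP6 was 12.7, 11.0 and 11.4 in A549, against 0.181, 0.416 and 0.413 in H23, where replicate 1 was the lowest. SPRY2 made up 86.4% ± 1.49 of the 3 Sproutys in A549 and 41.3% ± 1.36 in H23, where SPRY4 took an almost equal 39.6% ± 1.20. SPRED1 made up 66.1% ± 0.628 of the SPRED sum in A549 and 11.4% ± 2.03 in H23, and SPRED2 30.8% ± 0.804 in A549 and 85.2% ± 1.22 in H23. The share of SPRED3 was small in both lines and its libraries overlapped, at 2.99% to 3.31% in A549 and 2.46% to 3.90% in H23.

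The family sums also moved apart. The 3 phosphatases summed to 81.8 to 89.6 TPM in A549 and 47.2 to 59.5 TPM in H23. The 3 Sproutys summed to 13.9 to 14.95 TPM in A549 and 54.9 to 75.2 TPM in H23, and the 3 SPRED genes to 12.0 to 12.98 TPM in A549 and 39.4 to 48.2 TPM in H23. No library of one line overlapped the other in any of the 3 sums. TPM leaves less for longer genes in A549. On CPM per base of effective length, the phosphatases summed to 0.0793 to 0.0845 in A549 and 0.0322 to 0.0370 in H23. On that scale the Sproutys summed to 0.0132 to 0.0135 in A549 and 0.0375 to 0.0467 in H23. The SPRED genes summed to 0.0114 to 0.0120 in A549 and 0.0269 to 0.0299 in H23, again without overlap.

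**Figure D3:**
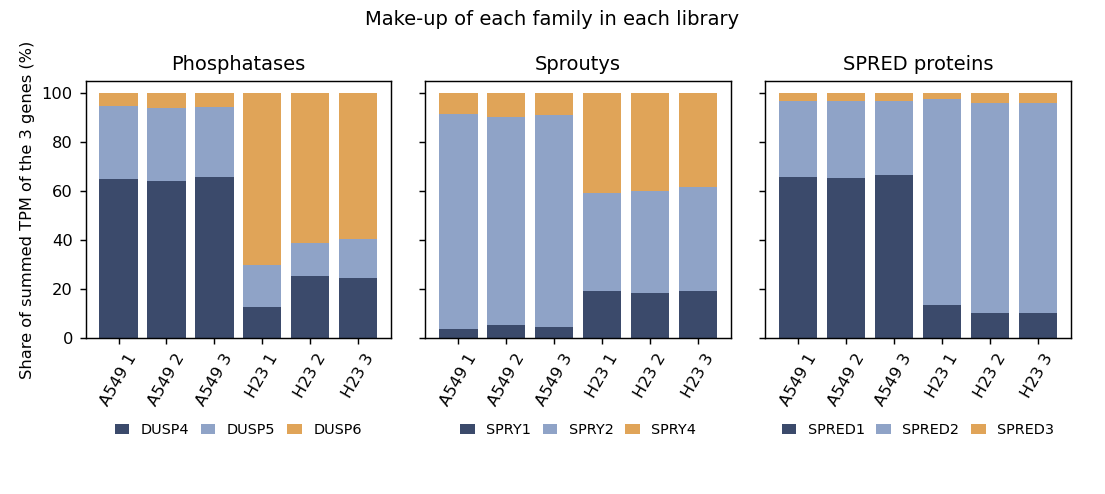
Stacked bars of the share of each gene in the summed TPM of its family, in percent, for each A549 and H23 library. DUSP4 and SPRED1 fill most of their bars in A549, at means of 65.0% and 66.1%, whereas DUSP6 and SPRED2 do so in H23, at means of 63.6% and 85.2%.

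The transcript tables list 23 transcripts for the 10 genes, and 3 genes (DUSP5, SPRED1 and PHLDA1) have 1 transcript each. Transcript usage, the division of a gene's reads among its transcripts, could be tested for 6 genes with the gene-level F test of diffSpliceDGE in edgeR, adjusted over 7539 genes. SPRED2 was the 1 gene past the threshold (edgeR adjusted p = 0.001), where 25.9% of all genes tested passed. In A549 the transcript paired with the downstream start, NM_001128210, held 0%, 4.71% and 0% of SPRED2 transcripts, against 65.5%, 56.8% and 46.2% in H23. NM_181784, paired with the upstream start, made up the rest in both lines. RSEM divided the reads that both transcripts share, and that division carries an error the test leaves out, so that a share of 0% is an estimate and not a count of 0.

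In level, both SPRED2 transcripts lay below their H23 values in all A549 libraries, which was not tested transcript by transcript. NM_001128210 was at 0, 0.18 and 0 TPM in A549, against 21.7, 22.1 and 19.15 TPM in H23. NM_181784 was at 3.72, 3.71 and 3.88 TPM in A549, against 11.4, 16.8 and 22.3 TPM in H23. H23 thus held both transcripts, with NM_001128210 the higher in replicates 1 and 2 and NM_181784 in replicate 3, whereas A549 held the upstream form almost alone.

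**Figure D4:**
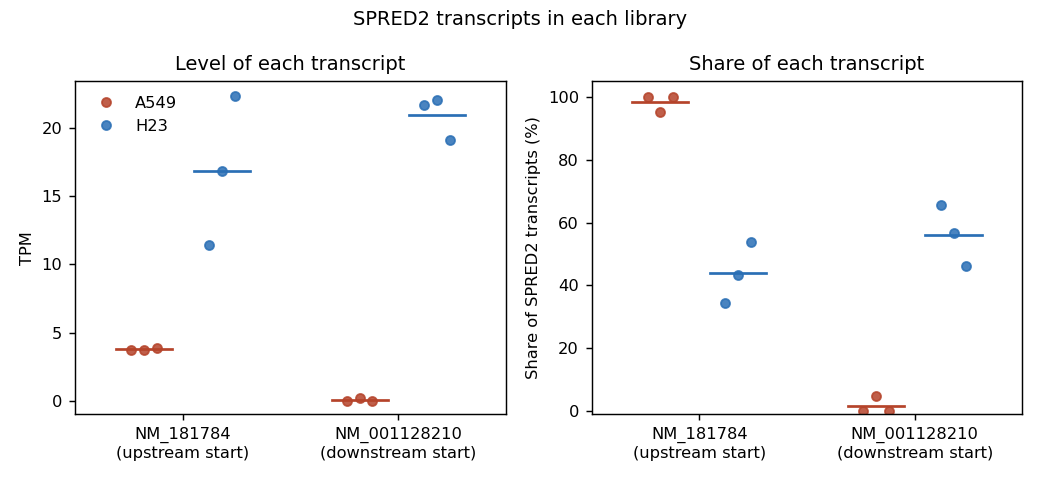
TPM (left) and share in percent (right) of the 2 SPRED2 transcripts in each library, with a bar at the mean, A549 in red and H23 in blue. The transcript paired with the downstream start lies between 0% and 4.71% in A549 and between 46.2% and 65.5% in H23.

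For the other genes with several transcripts, usage did not pass. The minor DUSP4 transcript NM_057158 held 3.96%, 4.07% and 3.63% of DUSP4 transcripts in A549, against 0%, 0.31% and 0.99% in H23. The groups did not overlap, but the edgeR adjusted p of 0.0801 missed the threshold, and it became 0.00537 without H23 replicate 1 and 0.0364 without H23 replicate 3, and over all settings it lay between 0.00537 and 0.223. RSEM divided SPRY1 reads among several transcripts with wide spread, NM_001258039 holding 77.3%, 42.9% and 0% in A549, against 70.6%, 33.8% and 67.5% in H23 (edgeR adjusted p = 0.132). The A549 shares rested on 27, 42 and 34 reads. The leading transcript of SPRY2, NM_005842, held 79.1% to 87.5% in A549 and 84.3% to 91.7% in H23, and that of SPRY4, NM_001127496, held 79.4% to 87.2% in A549 and 88.9% to 97.6% in H23. Their adjusted p were 0.365 for SPRY2 and 0.581 for SPRY4 in edgeR's usage test, and that of SPRED3 was 0.984. The SPRED3 transcript NR_073032 held 38.2% to 53.5% in A549 and anywhere from 0% to 60.1% in H23. The main DUSP6 transcript, NM_001946, held at least 97.4% in every A549 library and at least 98.3% in every H23 library, and its minor transcript did not pass the filter of the usage test. Without that filter its edgeR adjusted p was 1, and in the 4 fits with a library left out that kept it the adjusted p lay between 0.232 and 0.88.

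Other genes of the pathway were described from lists that were chosen with earlier results of these data known. All 7 other phosphatases of MAP kinases passed, 2 higher and 5 lower in A549, with a median log2 fold of -2.81. Over all tested genes 37.6% were higher, 39.6% lower and the median was -0.03, and the counts of the lists below stand beside the same shares. DUSP1, the phosphatase of the immediate early response, averaged 226 ± 6.71 CPM in A549, against 10.5 ± 2.17 CPM in H23 (log2 4.42 ± 0.17), and its nuclear relative DUSP2 averaged 0.292 ± 0.0830 CPM in A549, against 95.7 ± 16.9 CPM in H23 (log2 -8.34 ± 0.24). DUSP8 and DUSP9 were lower in A549, at log2 -3.08 ± 0.28 and -2.95 ± 0.18. DUSP8 was at -1.39 on log2(TPM + 1), a scale that understates low genes, and DUSP9 at -2.24 with the GC and length trend removed. DUSP10, with a log2 fold of 0.85 ± 0.17, was not called on log2(TPM + 1), at 0.05 (limma adjusted p = 0.716). Of 18 tested other negative regulators, 5 were higher and 9 lower, with a median of -0.25. ERRFI1, an inhibitor of EGFR, averaged 93.8 ± 4.35 CPM in A549, against 487 ± 89.4 CPM in H23 (log2 -2.38 ± 0.15), RASA1, which inactivates RAS, had a log2 fold of 1.44 ± 0.23, and SPRY3 one of -2.15 ± 0.22. LRIG1, which promotes loss of receptors, and RASAL2, which inactivates RAS, also passed as higher in A549, at log2 1.05 ± 0.15 and 0.96 ± 0.10, and RASAL1 as lower, at -3.23 ± 0.30. LRIG1 was not called on log2(TPM + 1) without a filter, at 0.41 (limma adjusted p = 0.0515), and RASAL2 was at 0.28 on log2(TPM + 1) and RASAL1 at -1.23. With the GC and length trend removed, RASA1 was at 0.83, RASAL2 at 0.55 and SPRY3 at -2.95, and on log2(TPM + 1) without a filter SPRY3 was at -0.34.

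Of 20 genes of the cascade itself, 8 were higher and 7 lower in A549, with a median of 0.18. The scaffold gene SHOC2 had a log2 fold of 2.06 ± 0.16 and the adaptor gene SHC1 one of -2.02 ± 0.12. The adaptor gene GAB1 was higher too, at 4.77 ± 0.178 CPM in A549, against 1.68 ± 0.738 CPM in H23. The RAS activator gene SOS2 was higher at log2 1.42 ± 0.24, and MRAS and MAP2K2 followed SHC1 among the lower ones, at -1.08 ± 0.10 and -0.99 ± 0.09. With the GC and length trend removed these folds were smaller, at 0.73 for SHOC2, 0.74 for GAB1, 0.50 for SOS2 and -0.20 for MAP2K2 (edgeR adjusted p of MAP2K2 = 0.00818, and 0.0355 with the replicate number as a block as well). Of the 20 genes, 4 were higher on log2(TPM + 1). Of 16 other genes that respond to ERK, 2 were higher and 7 lower, with a median of -0.21, and 11 were lower without H23 replicate 1. With the GC and length trend removed 6 were higher, and on log2(TPM + 1) 13 were lower. The growth factor genes EREG and AREG were more abundant in A549, at log2 4.09 ± 0.14 and 2.77 ± 0.13, and with the GC and length trend removed EREG was at 2.85. FOS and FOSL1, which encode AP-1 subunits, were less abundant there, at log2 -5.03 ± 0.13 and -2.63 ± 0.21, and with that trend removed at -4.39 and -1.91. EGR1, an immediate early transcription factor, held 3 counts over the A549 libraries and 16431 over the H23 libraries, which gives a ratio of H23 over A549 of 3674 with a 95% counting interval of 1257 to 17816. PHLDA2 and PHLDA3 went in opposite directions, with log2 folds of -1.91 ± 0.13 and 3.50 ± 0.10, and PHLDA3 was at 2.76 on log2(TPM + 1) and above its edgeR value with the same trend removed.

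**Figure D5:**
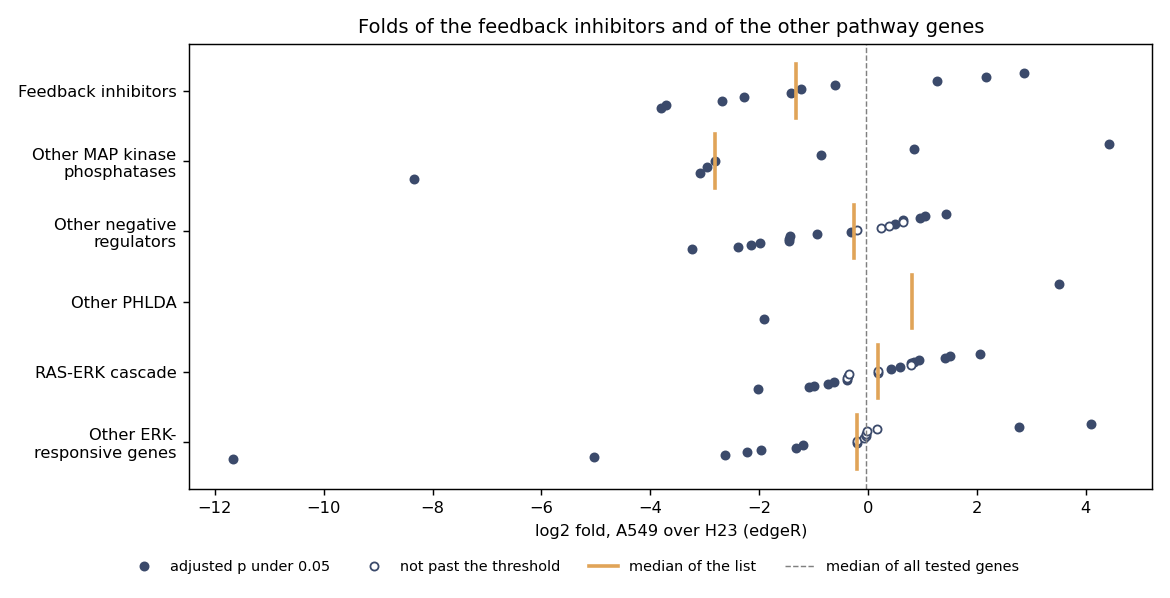
Log2 fold of A549 over H23 for the 10 feedback inhibitors and for 5 lists of other pathway genes, 1 point per tested gene, filled where the edgeR adjusted p was under 0.05, with the median of each list as a bar and that of all tested genes as a dashed line. The median is -1.32 for the feedback inhibitors and 0.18 for the cascade.

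Likeness of pattern was measured as the root mean square difference of log2(CPM + 0.1), centred per gene, over the 6 libraries. Among 15416 other tested genes, those nearest to DUSP4 were COL4A4 and JDP2, both at 0.086. Those nearest to SPRY4 were LOC100233156, at 0.078, and NR4A1, at 0.090. Within 0.2 of DUSP4 lay 15 genes and within 0.2 of SPRY4 76, so these neighbours are not unique.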

How the data were processed

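RNA was sequenced from 3 cultures of A549 and 3 of H23, from stranded total RNA libraries with ribosomal RNA removal, per the labels' protocols. Per the submitters' processing notes, STAR 2.6.0c, RSEM 1.3.0 and hg19 were used. The annotation release and strand setting are not given in the sources used here. The authors deposited expected counts, the reads that RSEM estimates for a gene or transcript, without scaling. Their deposited TPM values are scaled for length and to a fixed total, and a deposited percent is the part of a gene's transcripts that 1 transcript holds. Effective lengths, in bases, are as deposited, and the deposited FPKM values were not used.

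After rounding, expected counts went into edgeR 4.0.16 under R 4.3.3 (filterByExpr, TMM, robust quasi-likelihood F test, Benjamini-Hochberg, threshold 0.05). The approximate standard error divides the size of the log2 fold by the root of F. Transcript usage was tested with diffSpliceDGE. Both tests were also run on simulated counts. Those for usage came only from transcripts well counted in every library, unlike the SPRED2 transcript NM_001128210 in A549. They held no error from dividing reads among transcripts, so that run does not bear on the SPRED2 call. Alternatives used DESeq2 1.42.0, limma 3.58.1 on log2(TPM + 1) and log2(TPM + 0.1) with a TPM filter of 1, other scalings and filters, a replicate block, removal of a GC and length trend (GC known for 96.2% of tested genes, from GENCODE transcripts), and each library left out. One alternative, TPM rescaled over genes of at least 200 bases, was chosen after seeing the data. Intervals and floors of 3 counts cover counting error only. No pair of libraries differed by sampling of reads alone, the smallest chi-square per gene being 3.81. That check cannot tell separate cultures from separate libraries of 1 culture.

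The members and lists were chosen with earlier results of these data known. Named were all 10 members, up to 3 genes per direction and list with the largest fold among those past the test, and the 2 nearest genes for the members with the largest fold in each direction. Transcripts with a mean share of at least 5% in a line were eligible. The minor transcripts of DUSP4 and DUSP6 were added after their values were seen.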

Additional observations from a re-analysis of the deposited data

How the results depend on the processing

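All 167 alternative values of the 10 genes' folds kept their direction and passed. With limma on log2(TPM + 1), on log2(TPM + 0.1) and on log2(TPM + 1) without a filter, the genes called higher in A549 numbered 3419, 3397 and 4245, the higher negative regulators 3, 3 and 2, the higher cascade genes 4, 4 and 5, the lower ERK-responsive genes 13, 13 and 14, and the higher other phosphatases 1 each. With TPM rescaled without short genes these were 4249, 4, 6, 9 and 1, and the median log2 fold was -0.23, against -0.48 before rescaling. SPRED3 fell under the TPM filter. With the GC and length trend removed, 6 ERK-responsive genes were higher, or 5 with the replicate block as well. Leaving out 1 library gave 7 to 11 lower ERK-responsive genes and a DUSP4 usage p of 0.00537 to 0.199. The usage test called 1953 genes, 1057 with the Simes test and 1297 with the replicate block. For these shifts the cause was not tested. Replicate numbers were not treated as pairs in the main test. Same-numbered libraries correlated across genes at 0.06, -0.0764 and 0.113 in their deviations from the line means. A549 replicates 1 and 3 were closest to the H23 replicates of the same number, whereas A549 replicate 2 was closest to H23 replicate 1, at 0.0691. These small values do not settle whether the numbers mark pairs. With the replicate block 11691 genes were called, against 11910, all 10 feedback genes passed and the SPRED2 usage p was 0.0176. Counts of 27 to 42 in A549 limit the precision of SPRY1, and those of 40 to 44 that of SPRED3.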

Other observations

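Some further genes of the pathway lists, chosen after their values had been seen, add to the description. DUSP7 encodes an ERK phosphatase of the cytoplasm like DUSP6 and DUSP9, and all 3 genes were lower in A549. DUSP7 averaged 5.34 ± 0.712 CPM in A549, against 37.3 ± 4.11 CPM in H23 (n = 3 each, log2 -2.81 ± 0.15, edgeR adjusted p = 4.73e-06). The ubiquitin ligase gene CBL averaged 31.1 ± 1.66 CPM in A549, against 123 ± 22.7 CPM in H23 (log2 -1.98 ± 0.15). The gene of neurofibromin, NF1, through which SPRED proteins act, missed the threshold at log2 -0.20 ± 0.12 (edgeR adjusted p = 0.163). Among the ERK-responsive ETS factors, ETV4 averaged 34.7 ± 1.78 CPM in A549, against 162 ± 7.13 CPM in H23 (log2 -2.23 ± 0.09), whereas ETV5, at 54.2 ± 1.77 CPM in A549, against 55.6 ± 8.89 CPM in H23, did not pass (log2 -0.04 ± 0.13, edgeR adjusted p = 0.8). The cyclin gene CCND1 missed it too at log2 -0.03 ± 0.12 (edgeR adjusted p = 0.832). Without H23 replicate 1 both were called lower in A549, ETV5 at log2 -0.16 (edgeR adjusted p = 0.0152) and CCND1 at -0.15 (edgeR adjusted p = 0.00302).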
